A study of Caenorhabditis elegans with 11 samples.

Results

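Day-20 adults of the nematode Caenorhabditis elegans were compared with day-1 adults by sequencing the small RNA of whole hermaphrodites of N2, the wild-type laboratory strain. The comparison used the 2 libraries labelled 20 days and the 3 libraries labelled 1 day, 5 of the 11 libraries of a study that also sampled worms of 5 and 10 days. All 5 libraries share strain, sex and whole-worm source, and age is the labelled difference; no agent, allele or temperature is named, nor is the stage at which the count of days began. Because N2 hermaphrodites make their own embryos, a whole-worm library can hold RNA of oocytes and embryos as well as of the body. The members are hairpins, the folded RNAs out of which microRNAs (miRNAs) are cut: 145 of the 250 in the table had enough counts for a test and were taken as members, and these held 99.99% of all counts. Libraries held 1414304, 1491708 and 1800586 counts at 1 day and 1650059 and 955506 at 20 days, so that 1 count was worth between 0.555 and 1.05 unscaled CPM (counts per 1000000). Levels below are CPM scaled by TMM, a factor per library that allows for differences in the make-up of the pool. The labels do not tell whether separate cultures lie behind the libraries of 1 age, and the spread that p-values rest on may therefore be technical. In whole-worm RNA, fewer cells of a type and less RNA per cell cannot be told apart, and every level is a part of its library's whole miRNA pool.

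A mature miRNA guides an Argonaute protein to messenger RNAs that pair with its seed, the bases near its 5′ end, and lowers their translation or stability. miRNAs with a common seed form a family and can act on common targets. In the worm, lin-4 and the let-7 family time the larval stages, the mir-35 family is made in oocytes and embryos, and several others have been tied to lifespan, stress resistance or a single tissue. Counts are given per hairpin and not per arm, so which arm a change belongs to cannot be read.

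Most tested hairpins differed between the ages. Of the 145, 91 (62.8%) had a Benjamini-Hochberg adjusted p under 0.05 in the F-test of edgeR's quasi-likelihood fit, 48 (33.1%) as higher and 43 (29.7%) as lower at 20 days. Changes over 2-fold were seen for 63 (43.4%), of which 34 (23.4%) were higher and 29 (20%) lower. Without regard to the test, the 3 values of 1 day and the 2 of 20 days did not overlap for 110 hairpins (75.9%), with 20 days above for 56 (38.6%) and below for 54 (37.2%). The median log2 change over all 145 was -0.03, and it moved by -0.20 with total counts and by -0.11 with upper-quartile scaling in place of TMM. It also moved up under TMM. The move was 0.13 without replicate 2 of the 1-day group, 0.13 without replicate 1 of the 20-day group, and 0.10 with mir-44 and mir-45 counted as 1. Of the 91 calls, 74 held under each of the 17 other settings that tested the hairpin, 0 turned over. All 91 had the same sign in the pair of libraries, 1 of each age, whose descriptions carry the number 1 after the letter L. That number is taken as a sequencing lane. Both libraries were part of the fit, and for 90 of the 91 the ages did not overlap, which fixes the sign in any such pair. The shared sign is therefore no separate check of lane. Hairpins that entered the test through 1 age were more likely to differ by that choice: 18 had enough counts at 1 day and not at 20 days, 6 the reverse. Of the 18, 10 were called lower, and of the 6, all 6 higher. Changes are given below as a fold or, where no fold is named, on the log2 scale.

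**Figure D1:**
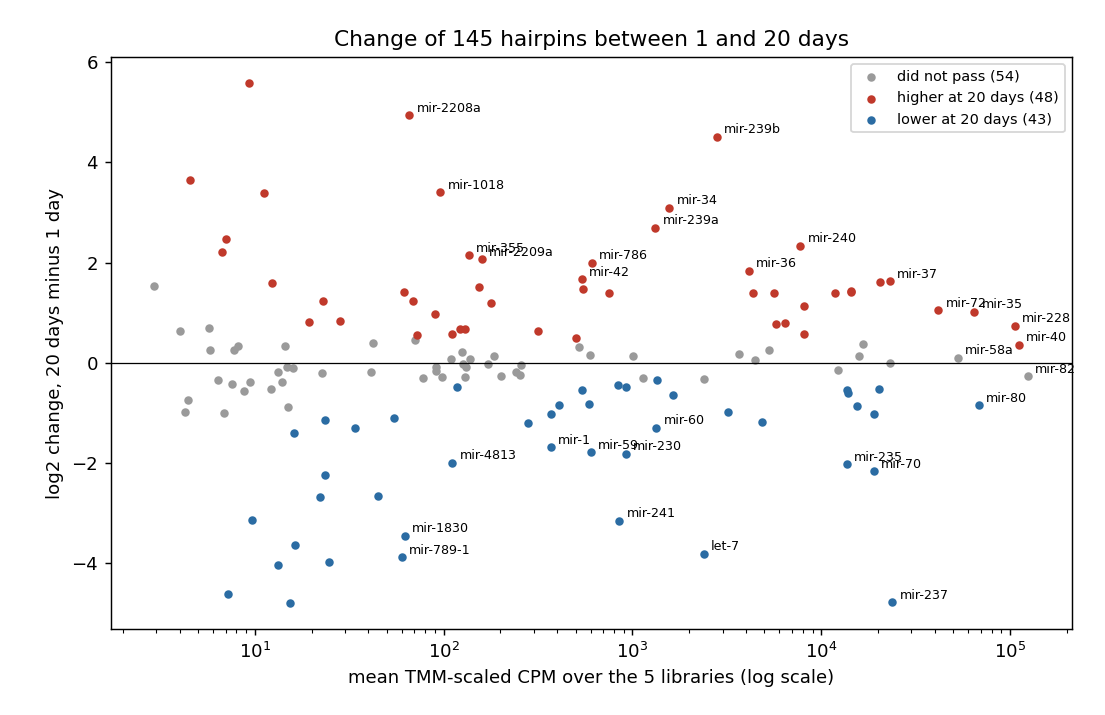
Log2 change from 1 to 20 days (vertical axis) of the 145 tested hairpins against their mean level over the 5 libraries in TMM-scaled CPM (horizontal axis, log scale); red points passed as higher (48), blue as lower (43) and grey did not pass (54). Large changes lie at both low and high levels: mir-237 fell from among the 8 most abundant hairpins, and mir-239b rose by 4.51 at a mean near that of let-7.

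Changes were not confined to rare hairpins. Among the 24 hairpins with a mean over 10000 CPM, 9 rose and 9 fell, 11 of them over 2-fold, and among the 23 between 1000 and 10000 CPM 11 rose and 6 fell. Between 100 and 1000 CPM 13 of 40 rose and 13 fell. Between 10 and 100 CPM 11 of 39 rose and 13 fell, and under 10 CPM 4 of 19 rose and 2 fell. Over all 145, 33.1% were higher and 29.7% lower, and 43.4% were called and over 2-fold. Between a 1-day and a 20-day library, 24.2% to 26.6% of the pool would have to change hands between hairpins to turn 1 library into the other (6 pairs), against 3.68% to 7.91% for the 4 pairs of the same age. In the means of the ages, 5 hairpins held 59.1% of all that was gained and 5 others 67.4% of all that was lost.

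The hairpin whose mean share grew most, from 9.25% ± 1.49 (SD, n = 3) to 13.4% ± 2.53 (SD, n = 2) of all counts, was mir-228, known from glia, with a gain of 4.12 percentage points. Its 20-day libraries held 11.6% and 15.2%, so its lead over the next, mir-35, is not beyond their spread. mir-35 gained 3.84 points and mir-72, of the miR-31-related mir-72 family, 2.56; mir-37 and mir-39, neighbours of mir-35, gained 2.33 and 2.07. The losses were led by mir-80, of the bantam-related mir-58 family, which went from 9.14% to 4.43% of all counts, followed by mir-237, a lin-4 relative, from 4.26% to 0.135%, and mir-82, from 14.7% to 10.6%. mir-70 dropped by 2.45 points and mir-235 dropped by 1.69. The share of mir-82 fell in raw counts while its TMM-scaled change did not pass (log2 change -0.26 ± 0.12 (SE), adjusted p = 0.0612). With total counts it passed as lower (-0.46, adjusted p = 3.57e-04), as it did with a minimum of 50 CPM, with a fixed lane term, without replicate 1 of the 1-day group and with DESeq2. By mean share, mir-82, mir-40 and mir-228 led in that order at 1 day, and mir-228, mir-40 and mir-82 at 20 days. mir-40 and mir-228 overlapped at both ages (9.69% to 12.8% and 7.54% to 10.2% at 1 day, 11.8% to 12.7% and 11.6% to 15.2% at 20 days), so their order is not beyond the spread of the libraries. mir-82 lay above both at 1 day (13.6% to 15.3%) and below both at 20 days (10.2% to 11.1%). mir-237 went from rank 7 to rank 41 and mir-240 from rank 36 to rank 17.

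The 10 most abundant hairpins of each library held 66.7%, 68.3% and 68.3% of counts at 1 day and 70.8% and 69.1% at 20 days, a difference of 2.14 percentage points (exact two-sided permutation p = 0.1, the smallest that 3 against 2 libraries allow). With TMM-scaled values, which do not sum to 100% of a library, the difference was 11.9. Between 5 and 6 hairpins made up 50% of a library and 23 to 25 made up 90% at either age. The ages did not overlap in the share of the 10 most abundant, but the gap between them was smaller than the range within either age.

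The 2 families with the largest shares of the pool moved in opposite ways. The mir-35 family, 8 hairpins of oocytes and embryos, held 17.4%, 17.7% and 21.4% of counts at 1 day and 30.2% and 27.8% at 20 days. The mir-58 family held 30.9%, 32.6% and 32.6% at 1 day and 22.4% and 20.6% at 20 days. The lin-4 family went from a mean of 4.33% to 0.174% of counts, and the mir-63 family from 4.69% to 2.59%, while the mir-72 family went from 3.76% to 6.54% and the mir-44 family from 2.62% to 5.37% (n = 3 and 2). Within the last, mir-44 and mir-45 had nearly equal counts in every library and may hold the same reads. With the pair counted as 1 the family went from 1.71% to 3.24%. For none of these 6 did the shares of the ages overlap. For the let-7 family (2.25% to 2.39% at 1 day, 1.68% to 2.06% at 20 days) and the mir-51 family (6.89% to 7.27%, and 5.78% to 6.69%) the shift was smaller, and for the mir-50 family the ages overlapped.

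**Figure D2:**
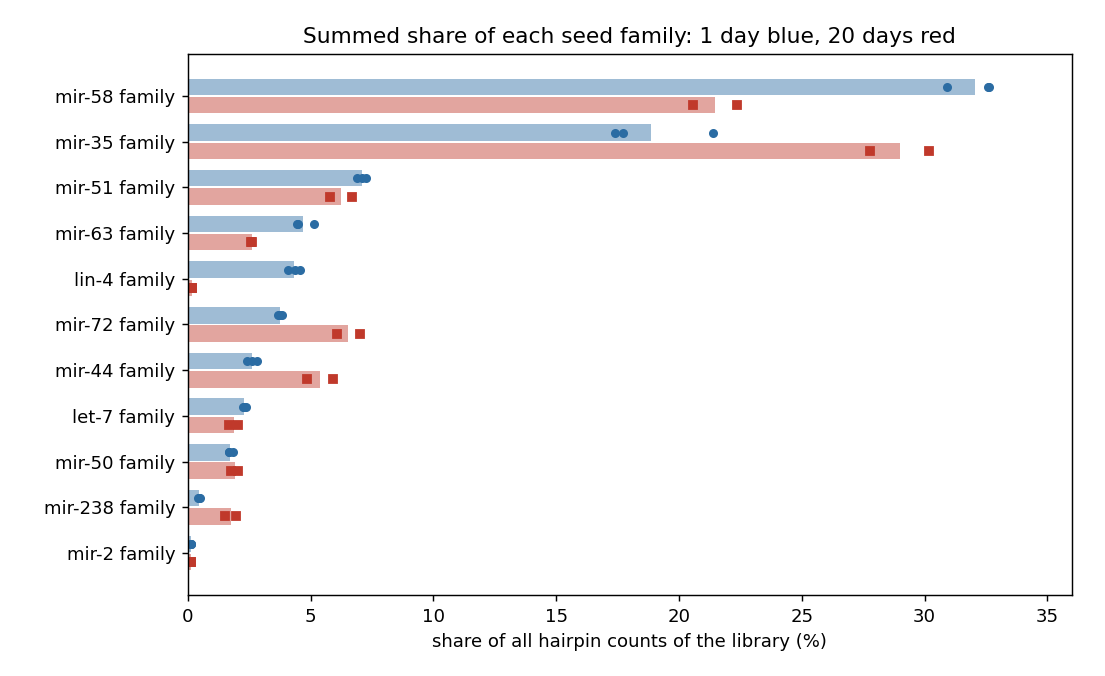
Share of all hairpin counts of a library (horizontal axis, percent) held by each of 11 seed families; bars are the means of the 3 libraries of 1 day (blue) and the 2 of 20 days (red), and points are single libraries. The mir-58 family stands lower and the mir-35 family higher in both 20-day libraries than in any 1-day library.

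The developmental timing miRNAs included some of the steepest falls. These miRNAs, also called heterochronic, switch off the programme of 1 larval stage so that the next can begin. mir-237, which shares its seed with lin-4, had 38284, 39515 and 38211 CPM at 1 day and 1284 and 1545 CPM at 20 days. It fell 27.4-fold (log2 change -4.77 ± 0.19 (SE), adjusted p = 4.38e-13). The 3 young values differed by at most 1.03 times, and both old ones were far below them. The mean was 14306 CPM at 5 days and 4462 CPM at 10 days. lin-4 itself, which represses lin-14 and lin-28 to move larvae past the earliest stages, had 706, 687 and 755 CPM at 1 day and 398 and 411 CPM at 20 days, a fall of 1.77-fold (adjusted p = 5.88e-05). mir-237 still made up 77.6% of the counts of the pair at 20 days, against 98.2% at 1 day.

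let-7, which represses lin-41 at the passage from larva to adult, had 3523, 3575 and 4259 CPM at 1 day and 259 and 282 CPM at 20 days, a fall of 14.0-fold (adjusted p = 2.56e-12). mir-241, which acts with mir-48 and mir-84 on hbl-1 in the middle larval stages, had 1622, 1225 and 1116 CPM at 1 day and 132 and 168 CPM at 20 days, a fall of 8.85-fold (adjusted p = 1.36e-10). For both hairpins, each old library was below each young one. mir-84 went the other way, with 2887, 2553 and 2454 CPM at 1 day and 5977 and 7948 CPM at 20 days (log2 change 1.40 ± 0.17 (SE), adjusted p = 1.14e-06). mir-48, which held the largest share of the counts of the 7, had 12815, 12229 and 13228 CPM at 1 day and 10813 and 12455 CPM at 20 days, which overlapped. Its change did not pass (log2 change -0.13 ± 0.12 (SE), adjusted p = 0.352; 95% interval -0.39 to 0.12). With total counts it passed as lower (-0.33, adjusted p = 0.00534), as it did with a minimum of 50 CPM. mir-795 rose by 0.58, and mir-793 (-0.19) and mir-794 (0.08) did not pass, though mir-793 passed as lower with total counts or a minimum of 50 CPM. The family had 2 higher and 2 lower members of 7, near the 33.1% and 29.7% of all tested hairpins. Its median log2 change was -0.13. Its make-up changed: mir-84 was 12.6% of the family's counts at 1 day and 35.5% at 20 days, let-7 18.0% and 1.39%, and mir-48 60.8% and 59.7%. Members of a seed family share part of their sequence, and the rule for counting reads that match several hairpins is not stated.

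mir-70 and mir-235 also fell from high levels, by less than mir-237 or let-7. mir-70 had 29719, 27333 and 25859 CPM at 1 day and 5877 and 6475 CPM at 20 days, a fall of 4.48-fold (adjusted p = 1.36e-10). Its mean was 29767 CPM at 5 days and 20879 CPM at 10 days, so that the lowest of the 4 means was that of 20 days. mir-235, the worm relative of vertebrate miR-92, which keeps blast cells of starved larvae at rest, had 20572, 17166 and 20961 CPM at 1 day and 5085 and 4527 CPM at 20 days, a fall of 4.07-fold (adjusted p = 1.02e-08). Its means at 5 and 10 days, 6121 and 4422 CPM, were already near that of 20 days. On the log2 scale, mir-59 fell by 1.79, mir-230 by 1.81, and mir-4813, which overlaps an exon of idhg-1 on the same strand, by 1.99. mir-230 had a lower mean at 10 days (177 CPM) than at 20 days (365 CPM).

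Among less abundant hairpins, mir-789-1 had 109, 87.6 and 90.6 CPM at 1 day and 7.03 and 5.43 CPM at 20 days and fell 14.7-fold. mir-789-2, named here for its likeness to mir-789-1 and not by its level, had 22 and 5 counts at 20 days and fell by 2.66. Its log2 change was -3.50 without replicate 1 and -2.22 without replicate 2 of the 20-day group. Both entered the test through their 1-day counts alone. Reads shared by the copies may have been split or counted for both, so each value is uncertain. mir-1830, in an intron of paic-1 on the same strand, had 125, 89.95 and 79.5 CPM at 1 day and 8.31 and 9.77 CPM at 20 days and fell 10.9-fold. Its 1-day libraries differed from each other by up to 1.58 times, and both 20-day values stayed below the lowest of them.

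Of the rises, those of mir-34 and the mir-238 family were large at moderate to high levels. mir-34, kept from worms to mammals and part of responses to DNA damage and stress, had 369.8, 373 and 431 CPM at 1 day and 3698 and 2981 CPM at 20 days (log2 change 3.09 ± 0.16 (SE), adjusted p = 1.31e-11). mir-239b had 314, 275 and 276 CPM at 1 day and 4888 and 8239 CPM at 20 days (log2 change 4.51 ± 0.27 (SE), adjusted p = 1.36e-10), so the 20-day libraries differed 1.69 times between themselves, far less than either differed from 1 day. mir-239a had 419.7, 369.8 and 456 CPM at 1 day and 2440.5 and 2933 CPM at 20 days and rose 6.47-fold. mir-238 had 3568, 3312 and 3391 CPM at 1 day and 8808 and 9127 CPM at 20 days and rose 2.62-fold. All 3 members of the family therefore rose, with TMM, RLE, upper-quartile and total-count scaling, and mir-239b went from 6.98% to 35.4% of the family's counts. Of all tested hairpins, 33.1% were higher with TMM. In worms, loss of mir-239a and mir-239b has been reported to lengthen life and loss of mir-238 or mir-246 to shorten it.

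mir-246 had 7043, 6888 and 7470.0 CPM at 1 day and 19125 and 18571 CPM at 20 days, a rise of 2.64-fold, with the values of an age close together. mir-355 had 56.9, 54.7 and 59.7 CPM at 1 day and 259 and 247 CPM at 20 days and rose 4.43-fold, and its highest mean was that of 10 days (307 CPM). The adjacent mir-240 and mir-786 are known for the rhythm of defecation, for which mir-786 acts in the intestine. mir-786 had 312, 246 and 279 CPM at 1 day and 1102 and 1117 CPM at 20 days and rose 3.98-fold. mir-240 had 3684, 3048 and 2149 CPM at 1 day and 10356 and 19485 CPM at 20 days and rose 5.04-fold, with the old libraries 1.88 times apart and both above the young ones.

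**Figure D3:**
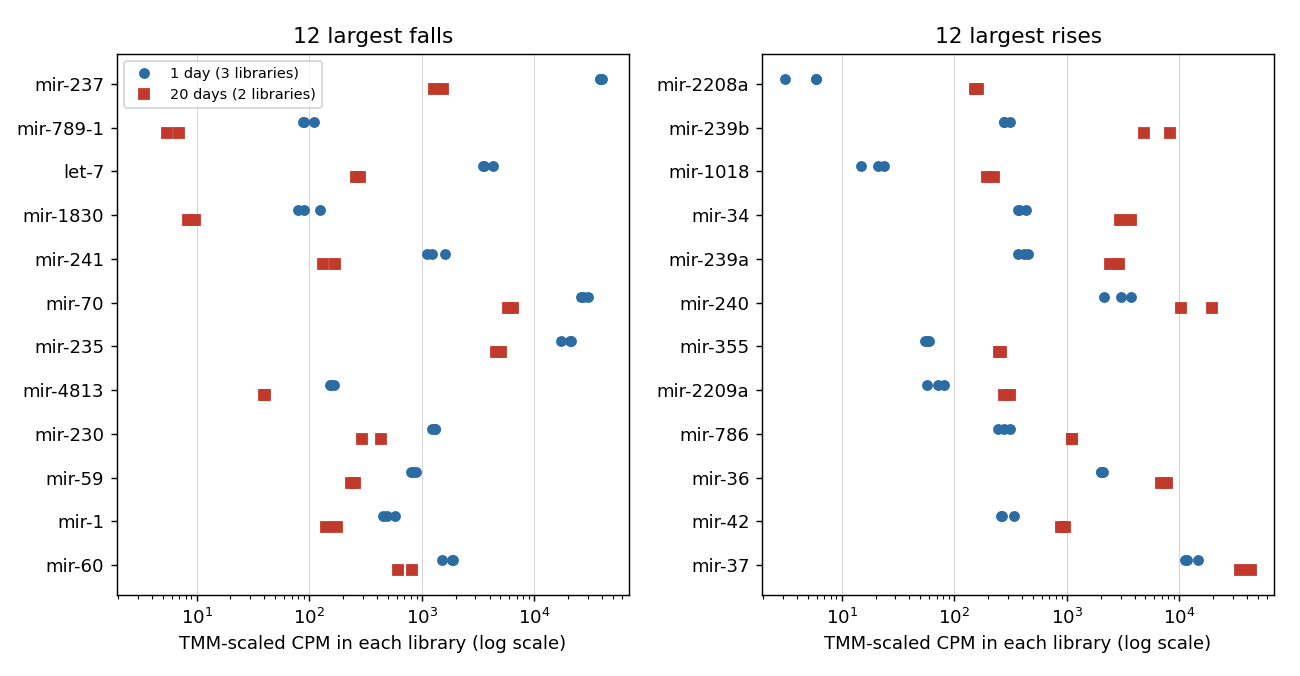
Level in each library (TMM-scaled CPM, log scale) of the 12 hairpins with the largest falls (left) and the 12 with the largest rises (right) among those that passed and averaged 50 CPM or more; circles are the 3 libraries of 1 day and squares the 2 of 20 days. The ages are apart for all 24, but these were picked for large changes in the same libraries, so the gap follows largely from that choice. Separate values were also common elsewhere, at 110 of the 145 tested (75.9%). mir-2208a entered the test through 20 days alone and mir-789-1 through 1 day alone. Among those above 1000 CPM, mir-237 and mir-239b move the farthest.

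The mir-35 family, needed for embryonic survival, rose for the most part. All 8 members passed as higher with TMM, beside 33.1% of all tested hairpins. Their median log2 change was 1.51 against -0.03 for all tested hairpins. But mir-40 (log2 change 0.36 ± 0.14 (SE), adjusted p = 0.0338) and mir-41 (log2 change 0.56 ± 0.23 (SE), adjusted p = 0.0413) no longer passed with total counts, upper-quartile scaling or a minimum of 50 CPM, which left 6. mir-40 had 91829, 84962 and 122463 CPM at 1 day and 133499.8 and 122186 CPM at 20 days, and its highest young value exceeded the lower old one. Without replicate 1 of the 1-day group its change was 0.29 and did not pass. mir-41 had 60.05, 64.7 and 55.5 CPM at 1 day and 65.8 and 116 CPM at 20 days, and without replicate 2 of the 20-day group its change was 0.18 and did not pass; nor did it pass without replicate 1 or 3 of the 1-day group, or with limma-voom, with or without a lane block. The ages did not overlap for mir-41, though narrowly (64.7 against 65.8 CPM), nor for the other 6. mir-35 had 38854, 45367 and 53367 CPM at 1 day and 95053 and 90384 CPM at 20 days. mir-36 had 2077, 2005 and 2019 CPM at 1 day and 6822 and 7696 CPM at 20 days, and mir-37 had 11133, 11646 and 14708 CPM at 1 day and 43034 and 34411 CPM at 20 days. mir-39, mir-38 and mir-42 rose by 1.62, 1.40 and 1.67. mir-40 stayed the largest member but went from 57.7% to 42.2% of the family's counts, as mir-37 went from 7.27% to 12.7% and mir-39 from 6.61% to 11.4%. These hairpins are also the markers of oocytes and embryos here: all 8 were detected in all 5 libraries, their summed share was higher at 20 days, and the part of embryos or germline in this and the other changes was not tested.

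The other large families did not move as units. Over all tested hairpins, 33.1% were higher and 29.7% lower. In the mir-58 family, mir-80 had 87465, 80717 and 80983 CPM at 1 day and 44995 and 47576 CPM at 20 days and fell by 0.84. mir-81 had 23113, 22760.0 and 25614 CPM at 1 day and 12593 and 11055 CPM at 20 days and fell by 1.01. mir-2209a had 56.9, 71.1 and 81.1 CPM at 1 day and 311 and 275 CPM at 20 days and rose 4.20-fold. mir-58a (0.11), mir-82 (-0.26) and the scarce mir-58b did not pass, which left 1 higher and 2 lower of 6 tested and 9 listed. With total counts 3 were lower, and with lane as a fixed term 2 were higher and 3 lower. In the mir-51 family, related to miR-100 and needed in embryos, mir-53 (1.48), mir-54 (1.13) and mir-52 (0.80) rose, mir-51 (-0.51) and mir-55 (-0.53) fell and mir-56 (0.14) did not pass. mir-54 was uneven at 20 days (5939, 5878 and 4729 CPM at 1 day and 8036 and 16172 CPM at 20 days): its change was 1.68 without replicate 1 and 0.59 without replicate 2 of the 20-day group. The call of mir-55 was lost without replicate 1 of that group (-0.42).

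In the mir-63 family, 4 of 5 fell, by 1.03 for mir-63, 0.97 for mir-229, 0.85 for mir-65 and 0.59 for mir-64. The shares over all tested hairpins were 29.7% lower and 33.1% higher. mir-66 had 3576, 3359 and 3552 CPM at 1 day and 4063 and 3794 CPM at 20 days, a change of 0.17 that did not pass, except with near-identical hairpins counted as 1 (0.27). All 3 hairpins tested in the mir-44 family rose: mir-61, which acts in the vulva downstream of LIN-12, by 0.59, and mir-44 and mir-45 by 1.41 and 1.44. The ratio of the counts of mir-44 and mir-45 was 0.990 to 1.03 over the libraries, so the same reads may have been counted for both. With the pair taken as 1 hairpin the count of changed hairpins was 94 of 144, 54 higher and 40 lower. TMM factors were refitted there, and the median log2 change of the 144 moved up by 0.10, so calls of other hairpins moved too. In the mir-72 family, mir-72 had 29129, 28212 and 30465 CPM at 1 day and 66199 and 54766 CPM at 20 days and rose 2.07-fold. mir-73 rose by 0.78 and mir-74 fell by 0.83. In the mir-2 family, mir-43 rose by 1.23 and mir-2 by 0.50, the latter not with total counts, upper-quartile scaling or a minimum of 50 CPM, and mir-250 (0.16) and mir-797 (0.34) did not pass. In the mir-50 family, mir-62 rose by 0.83 and mir-50 fell by 0.44, a call lost without replicate 2 of the 1-day group (-0.35), without replicate 1 (-0.31) or 2 (-0.38) of the 20-day group, and with lane as a fixed term. mir-90 (log2 change 0.39 ± 0.17 (SE), adjusted p = 0.0523) was just short of the threshold and passed as higher with RLE factors, DESeq2, limma-voom and several others.

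**Figure D4:**
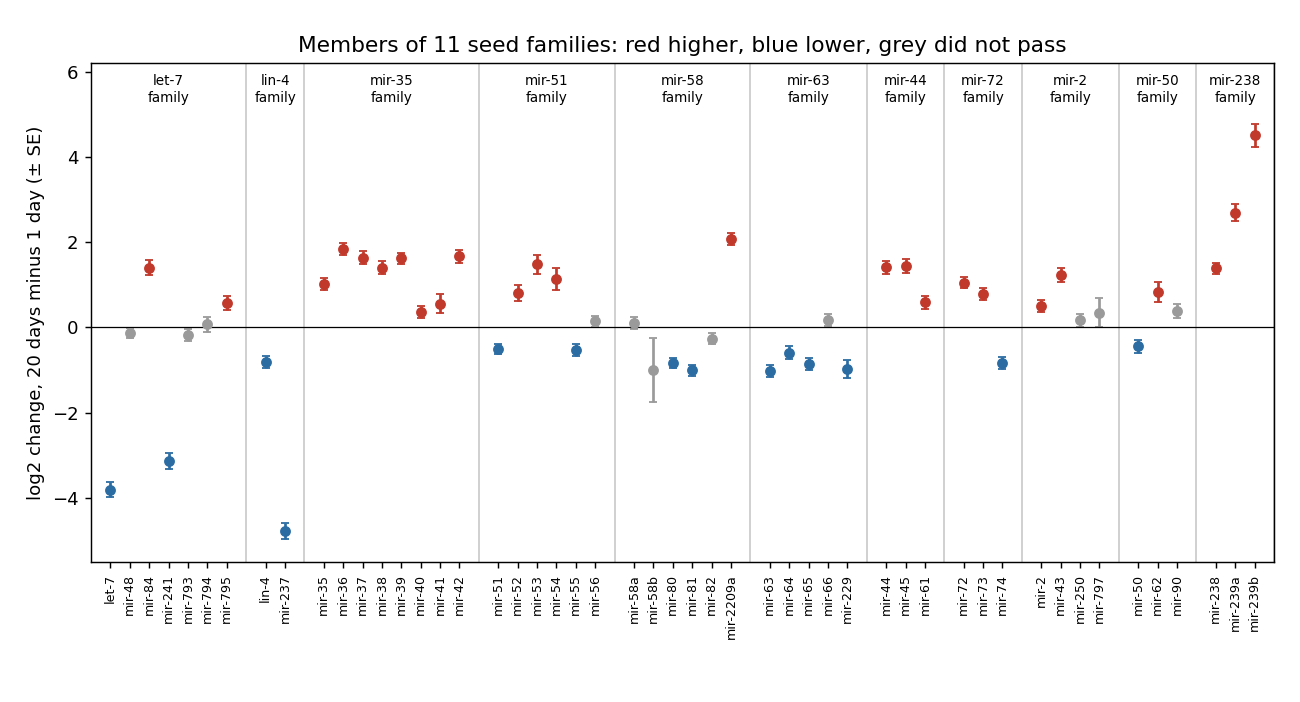
Log2 change from 1 to 20 days (vertical axis, with SE) of each tested member of 11 seed families, in columns by family; red passed as higher, blue as lower and grey did not pass. The mir-35, mir-44, mir-238 and mir-2 families have all tested members above 0. In the mir-2 family 2 of the 4 did not pass. The lin-4 family has both members below 0, while the let-7, mir-51, mir-58, mir-72 and mir-50 families have members called on both sides.

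Among hairpins tied to 1 tissue, mir-1 of muscle and mir-60 of the intestine fell, and mir-228 of glia rose. mir-1, which tunes the neuromuscular junction in muscle, had 453, 496 and 579.6 CPM at 1 day and 175 and 140.0 CPM at 20 days, a fall of 3.21-fold (adjusted p = 2.88e-06). mir-60 had 1880.4, 1875 and 1506 CPM at 1 day and 614 and 815 CPM at 20 days, a fall of 2.46-fold (adjusted p = 2.54e-06), in contrast to the rise of mir-786. mir-228 had 90836, 88233 and 72366 CPM at 1 day and 122154 and 157292 CPM at 20 days (log2 change 0.74 ± 0.14 (SE), adjusted p = 1.81e-04). Its young libraries ranged 1.26 times and its old ones 1.29 times, without overlap. Of the neuronal hairpins, lsy-6, which sets the left-right difference of a pair of taste neurons, had only 36, 32 and 42 counts at 1 day and 11 and 9 at 20 days and fell by 1.39, a call lost without replicate 1 of the 20-day group (-0.99). mir-124 (log2 change -0.53 ± 0.30 (SE), adjusted p = 0.148) and mir-791 (log2 change -0.21 ± 0.30 (SE), adjusted p = 0.544) did not pass, and mir-124 passed as lower with total counts (-0.73). The list of 8 tissue-restricted hairpins thus had 3 higher and 3 lower members, near the shares over all tested hairpins.

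Other single members of conserved families went both ways. mir-71, which acts in neurons to support long life, had 6508, 6117 and 6187 CPM at 1 day and 2737 and 2817 CPM at 20 days, a fall of 2.26-fold (adjusted p = 2.82e-07). mir-236, of the miR-8/miR-200 family, had 2734, 2433 and 2577 CPM at 1 day and 1973 and 2181 CPM at 20 days. Its change of -0.31 did not pass with TMM (adjusted p = 0.0612) and passed as lower with RLE, upper-quartile and total-count scaling, DESeq2 and a minimum of 50 CPM. mir-57, related to miR-10 and needed for the pattern of the tail, had 24955, 22729 and 21521 CPM at 1 day and 21836 and 24269 CPM at 20 days, a change of 0.00 with a 95% interval of -0.34 to 0.34. Of the 7 conserved singles, 1 rose (mir-34), 3 fell (mir-1, mir-71 and mir-235) and 3 did not pass. Over all tested hairpins, 33.1% were higher and 29.7% lower, or 62.8% called. Of the 11 hairpins on the lifespan list 6 were higher and 4 lower, beside 33.1% and 29.7% of all tested, where mir-83, a miR-29 relative, did not pass (log2 change 0.32 ± 0.24 (SE), adjusted p = 0.254) except in the fit to the 2 ages alone (0.37).

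Pairs of hairpins with a common seed differed within the pair in some cases. mir-252 had 69.5, 58.2 and 68.3 CPM at 1 day and 134 and 122 CPM at 20 days and rose 1.96-fold. Its partner mir-251, with 14 counts in all at 1 day and in the test through 20 days alone, rose by 2.21 but not with a fixed lane term (adjusted p = 0.0509). mir-233 rose by 0.67, a call lost without replicate 1 of the 20-day group (0.47), and mir-87 (-0.03) did not pass. mir-357 had 39.8, 30.6 and 30.9 CPM at 1 day and 5.75 and 4.34 CPM at 20 days and fell 6.36-fold, having entered through 1 day alone. mir-232 (log2 change 0.40 ± 0.19 (SE), adjusted p = 0.0760) did not pass. It passed as higher with a fixed lane term, with near-identical hairpins counted as 1 (0.50) or once replicate 2 of the 1-day group was left out (0.64). mir-46 (-0.35), mir-47 (-0.48) and mir-49 (-0.54) passed as lower with TMM. mir-46 did not pass in fits that lacked a 20-day library or replicate 2 or 3 of 1 day (-0.30 to -0.24), nor in the fit to the 2 ages alone, without the count filter, with near-identical hairpins counted as 1 or with lane as a fixed term. mir-49 did not pass in the same 4 fits with a library left out (-0.63 to -0.31) nor with RLE factors or near-identical hairpins counted as 1. mir-47 was lost with a fixed lane term. mir-75 (0.07) and mir-79 (-0.25) did not pass with TMM, and mir-79 passed as lower with total-count or upper-quartile scaling or a minimum of 50 CPM.

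Position in the genome was compared with the changes as a description, on the Ensembl annotation of WBcel235. Of 18 clusters of neighbouring hairpins on 1 strand with at least 2 tested members, 6 had every tested member called in 1 direction and 5 had members called in both. Of the 6, 3 include members that passed the count filter through 1 age alone, which made a call more likely. Over all tested hairpins 62.8% were called, 33.1% as higher and 29.7% as lower. Whether the cluster counts depart from that rate was not tested. The 7 hairpins from mir-35 to mir-41 lie within 797 bases of chromosome II and changed by 0.36 to 1.84. As above, mir-40 lost its call in 4 of 17 settings and mir-41 in 8 of 17. A cluster of mir-4807, mir-2220 and mir-1018 on chromosome X (1872466 to 1879513, plus strand) is one of the 3. mir-4807 and mir-2220 passed the filter through 20 days alone, and mir-1018 through both ages. mir-1018 had 24.02, 21.2 and 14.9 CPM at 1 day and 226 and 194 CPM at 20 days and rose 10.6-fold. mir-4807 had 1, 0 and 1 counts at 1 day and 35 and 21 at 20 days. mir-2220 had 1, 1 and 2 counts against 20 and 7, a change that did not pass with a fixed lane term (adjusted p = 0.197). The cluster of mir-2208a, mir-2208b and mir-2209a on chromosome IV (1021772 to 1027164, plus strand) is another of the 3. mir-2208a and mir-2208b passed the filter through 20 days alone and mir-2209a through both ages. mir-2208a had 5, 10 and 11 counts against 238 and 150, a rise of 30.7-fold. mir-2208b had 6, 5 and 0 counts against 29 and 28. Its log2 change of 3.40 was 2.77 without replicate 3 of the 1-day group. Whether mir-2208a and mir-2208b share reads was not tested.

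In other clusters neighbours parted. mir-48 and mir-241 lie within 1872 bases on the minus strand of chromosome V (14364412 to 14366283), and mir-241 fell 8.85-fold while mir-48 did not pass with TMM. mir-54 rose, mir-55 fell and mir-56 did not pass, although the 3 lie within 404 bases on the minus strand of chromosome X (13144691 to 13145094), in an intron of F09A5.3 on the other strand. mir-73 rose and mir-74 fell in a cluster on chromosome X (2368765 to 2372549, plus strand) whose other tested member, mir-75, had 109, 106 and 107 CPM at 1 day and 120.2 and 104 CPM at 20 days and did not pass. mir-238 rose and mir-80 fell on chromosome III (8865270 to 8874084, minus strand), where mir-90 was just short of the threshold. mir-51 fell and mir-53 rose on chromosome IV (11026013 to 11027691, minus strand). mir-2 and mir-71, both in introns of ppfr-1 on its strand, went up and down, the rise of mir-2 with TMM and not with total counts. mir-229, mir-64 and mir-65 fell and mir-66 did not pass in an intron of gcn-1 on chromosome III (2172452 to 2173206, plus strand).

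**Figure D5:**
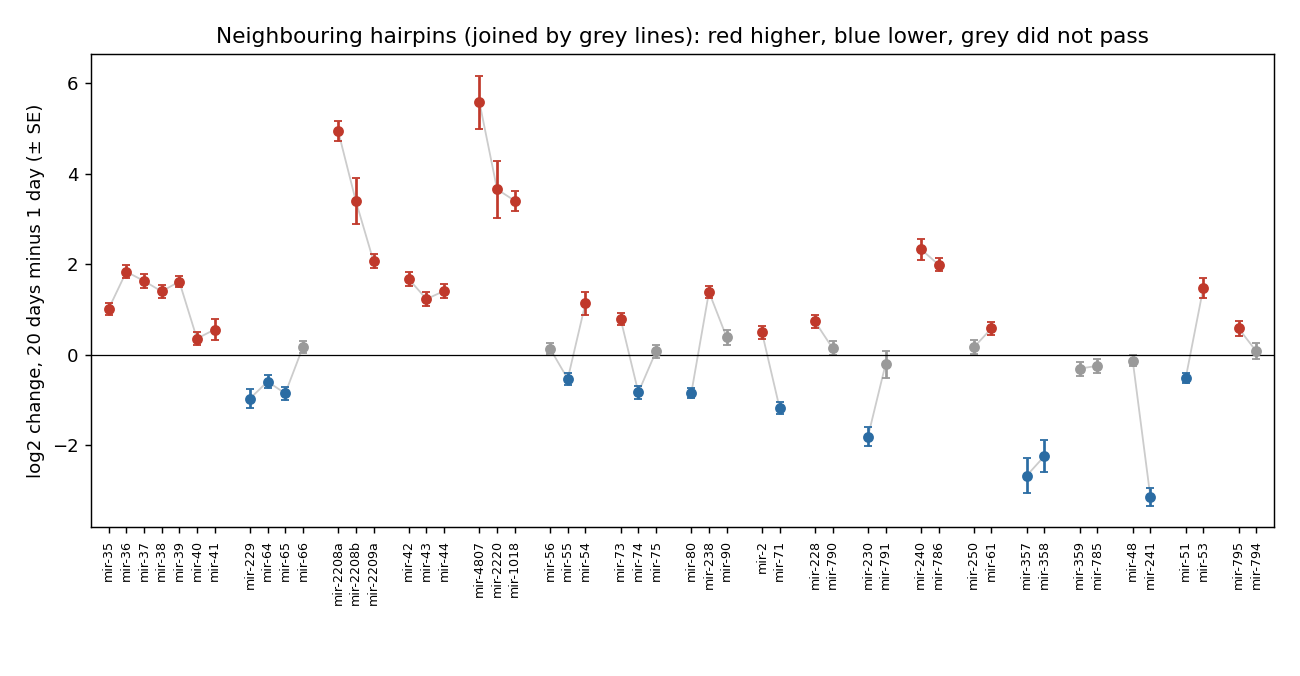
Log2 change from 1 to 20 days (vertical axis, with SE) of tested hairpins in 18 genomic clusters, in order of position within a cluster and joined by grey lines; red passed as higher, blue as lower and grey did not pass. The mir-35, mir-42, mir-2208a, mir-4807 and mir-240 clusters have all tested members higher with TMM. mir-54 and mir-55, mir-73 and mir-74, mir-80 and mir-238, mir-2 and mir-71, and mir-51 and mir-53 were called in opposite directions with TMM.

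Against 33.1% higher and 29.7% lower over all tested hairpins, 14 of 25 tested hairpins on II were higher and 4 lower, a count that the mir-35 to mir-44 region dominates, while on III 3 of 18 were higher and 10 lower. On X 19 of 47 were higher and 12 lower, on IV 9 and 5 of 27, on V 1 and 5 of 13 and on I 2 and 6 of 14. Of 34 hairpins in introns of protein-coding genes on the same strand 6 were higher and 11 lower, of 18 in introns on the other strand 9 and 5, of 6 in exons 0 and 2, and of 86 between protein-coding genes 33 were higher and 24 lower. Members of a cluster or family are not independent, and none of these counts was tested.

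Of the 33 tested hairpins with catalogue numbers from 1000 up, 11 were higher and 8 lower, beside 37 and 35 of the other 112, a difference that was not tested. Of the 33, 5 passed the filter through 20 days alone (5 higher) and 6 through 1 day alone (3 lower); of the 17 that passed through both ages 6 were higher and 5 lower. Of the 11 that averaged 50 CPM or more, 5 were higher and 3 lower. mir-1022 had 92.3, 87.01 and 85.3 CPM at 1 day and 228 and 277 CPM at 20 days and rose 2.85-fold. mir-1829b had 375, 348 and 364 CPM at 1 day and 163 and 151 CPM at 20 days and fell 2.30-fold. Its relative mir-1829c (log2 change -0.15 ± 0.15 (SE), adjusted p = 0.396) did not pass with TMM and passed as lower with total counts (-0.35) or a minimum of 50 CPM. mir-1820 was uneven (149, 128 and 69.9 CPM at 1 day and 160.4 and 379.9 CPM at 20 days). Its change was 1.21, 1.86 without replicate 1 and 0.53 without replicate 2 of the 20-day group, where it did not pass. mir-5592-1 and mir-5592-2, in an intron of aakb-1 on opposite strands, had changes of -0.09 and -0.29 that did not pass with TMM. The latter passed as lower with total-count or upper-quartile scaling or a minimum of 50 CPM, and if strand was not used in counting, which is not stated, their reads could not be told apart.

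At the bottom of the range, 3 hairpins chosen after their values were seen had almost no counts at 20 days. All 3 entered the test through 1 day alone, so their counts are given as a description. mir-1020 had 127 counts in all at 1 day and 2 at 20 days, mir-788 had 109 and 3, and mir-799 had 61 and 1. Of the 105 hairpins not tested, 39 had no count in any of the 5 libraries and the highest single count was 11. Counts of 1 to 3 in each 1-day library and none at 20 days were seen for mir-1828, mir-360, mir-8190 and mir-8211, and mir-4810b had 1 count in each 20-day library and none at 1 day. The first 4 had 3 to 6 counts in all, and no change is read from them at this depth.

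Some hairpins whose change did not pass had other levels in between. mir-77, chosen after its values were seen, had 4113, 4134 and 4900.4 CPM at 1 day and 4799 and 4272 CPM at 20 days, a change of 0.05 (95% interval -0.23 to 0.33), with means of 8856 CPM at 5 days and 10249 CPM at 10 days. mir-75 had a change of 0.07 (95% interval -0.24 to 0.39) with means of 227 and 199 CPM at 5 and 10 days. mir-58a had 44007, 50107 and 59539 CPM at 1 day and 61358 and 48834 CPM at 20 days, a change of 0.11 (95% interval -0.20 to 0.41) that passed as higher with lane as a fixed term (0.24), with means of 93971 and 118925 CPM at those ages. mir-57 was lower in between, at 15880 and 18161 CPM. These values were set side by side and not tested here.

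The 2 libraries of 20 days agreed for most hairpins. Over the 70 called hairpins that averaged 50 CPM or more, the ratio of replicate 2 to replicate 1 of the 20-day group had a median of 1.00 and ranged from 0.670 for mir-233 to 2.37 for mir-1820. It was over 1.5 for 5, namely mir-1820, mir-54 (2.01), mir-240 (1.88), mir-41 (1.76) and mir-239b (1.69), all of which were called higher. Replicate 2 was also the shallowest library, and whether its depth had a part in these ratios was not tested.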

How the data were processed

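Per the labels' protocols, a TruSeq kit for small RNA gave the libraries. The submitters' processing notes name BWA 0.7.12-r1039, SAMtools 1.3.1-9, Trimmomatic 0.36 and CASAVA 1.8.4, with no counting rule. The deposited values are raw counts per miRNA hairpin, by the authors. From these, hairpins were kept by edgeR's filterByExpr by age (minimum count 10, minimum total 15) and fitted over all 11 libraries of 4 ages with TMM factors and edgeR 4.0.16's quasi-likelihood F-test in R 4.3.3, with a contrast of 20 against 1 day and Benjamini-Hochberg adjustment over 145 hairpins. CPM are TMM-scaled and shares are of raw counts. Tested on simulated counts (144 hairpins), the fit called 19 of 20 hairpins changed 2-fold, 20 of 20 changed 4-fold and 2 of 104 unchanged. The simulation gave all hairpins 1 common spread (biological coefficient of variation 12.5%), rises and falls in equal number, and no change at 5 or 10 days. Hairpins of uneven spread and a larger part of changed hairpins were not simulated, so these rates may not hold for the data.

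Members and lists were chosen with earlier results of these data known, and families were taken from general knowledge of worm seeds. Hairpins named were the 12 largest rises and falls averaging at least 50 CPM, the 8 most abundant at each age, members of the lists, hairpins numbered from 1000 up with at least 50 CPM, members of clusters with at least 3 tested hairpins (gaps of at most 10000 bases), and those with counts in every library of 1 age and in none of the other. Others are named as chosen later. Alternatives were other scalings, filters, DESeq2 1.42.0, limma 3.58.1 (voom), lane terms and single libraries left out. The annotation was that of Ensembl for WBcel235; 245 of 250 names had 1 place in it.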

Additional observations from a re-analysis of the deposited data

How the results depend on the processing

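Over 17 settings between 74 and 100 hairpins changed, against 91 of 145, but the settings did not test the same number. The 74 were of 97 tested with a minimum of 50 CPM, and the 100 of 145 with total counts. Without the count filter 97 of 222 changed. Scaling moved the split: 44 were higher and 56 lower with total counts, 45 and 48 with upper-quartile scaling, and 49 and 44 with RLE factors. DESeq2 called 96, limma-voom 92 and the fit with lane as a fixed term 91. The last is a weak check, because lanes 2, 4 and 6 hold 1 library each. Those libraries are fitted exactly, and little is left from which to estimate the spread. Calls gained or lost with a fixed lane term are to be read with that limit. With a single library left out the count ran from 86 to 91, higher ones from 46 to 51 and lower ones from 36 to 44; with 1 library of 20 days left, that library is assumed to vary like the other groups. Of the 63 changes over 2-fold, 57 kept their call in each setting that tested them. With TMM-scaled values, which by construction no longer sum to 100% of a library, the 10 most abundant hairpins differed by 11.9 in place of 2.14 percentage points (exact permutation p = 0.1 in both). No paired analysis was possible because the libraries of 1 and 20 days share no replicate number in the labels and only 1 lane number; lane entered through the fits above, and as a random block in limma-voom, which called 92. The pair of libraries from lane 1, with 1 of each age, gives signs and no count of calls. Depth limits the lowest hairpins: 1 count was worth up to 1.05 CPM.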
